A study of Sus scrofa with 12 samples.

Results

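The regions described here are merged m6A peaks that the deposited table lists under several genes at once. A peak was taken when its name stood beside at least 2 distinct gene identifiers and its first entry was not marked as a long non-coding RNA. Of 25055 merged peaks, 3460 met this rule (13.8%), and 20827 others lay under a single protein-coding gene. The genes under the 3460 shared peaks numbered 3479.

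N6-methyladenosine (m6A) is a methyl mark that a nuclear writer complex places on adenosines of mRNA, most often near the stop codon and in the 3' untranslated region (UTR), where reader proteins bind it and alter the stability or translation of the transcript. MeRIP-seq maps it by cutting RNA into pieces, pulling down those that an m6A antibody recognises (IP), and comparing their reads with those of the uncaptured pool (input), so that places rich in IP reads are called peaks. Genes often share genomic ground. Neighbours that point towards each other can run into each other's 3' UTRs, neighbours that point away from each other can share a start region, and a small gene can lie inside a larger one. A peak at such a place belongs by position to more than 1 transcript, and reads without strand information cannot tell a gene from its partner on the other strand.

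The cells were IPEC-J2, an established epithelial line from pig jejunum with the genotype labelled WT, cultured for 24 h without (0 µM, CON) or with 25 µM of a compound labelled OAA. Each treatment has 3 libraries labelled IP and 3 labelled input, both numbered 1 to 3, so 12 libraries fell in 4 groups of 3. No label says that libraries of one number came from the same culture, and the numbers were not used to pair them. All groups come from this one line, grown in the same serum-containing medium. Whether the 3 replicates of a treatment were independent cultures is not said, and the p-values reflect the spread among these libraries alone, which may be technical.

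The libraries labelled input held 16.5 to 23.0 M reads in peaks and those labelled IP 3.71 to 4.61 M. Reads outside peaks are not in these sums. The shared peaks took 12.9 to 13.1% of the reads in the libraries labelled input and 15.2 to 15.4% in those labelled IP. Titles and deposited values point different ways on which part was immunoprecipitated, and groups are named by their titles throughout. The deposited log2 ratios run as labelled input over labelled IP, with a CON median of 3.78 over shared peaks. Deposited FPKM belong to the libraries labelled IP. The titles may be exchanged, which was not tested. The peak ratio used here is the log2 of labelled input over labelled IP after scaling, the direction of the authors' deposited log2 ratios. If the titles hold, its sign as antibody enrichment is the opposite. If they are exchanged, the peak ratio has the sign of antibody enrichment. The deposited FPKM (fragments scaled to transcript length and library size) come under the codes that the labels give to IP. In those 6 libraries all 5 measured markers of epithelium on the list used here reached a mean of 1 FPKM, led by KRT8, a simple-epithelium keratin, at 396 FPKM. None of 4 fibroblast markers and none of 3 leukocyte markers did, while 1 of 3 enterocyte, 1 of 3 goblet and 3 of 3 endothelial markers did, the highest of them being sucrase-isomaltase (SI) at 12.8 FPKM. The listed markers KRT19, ALPI and VWF had no value and are not in these counts.

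Most shared peaks lay under a pair of genes. Counts were 3187 peaks under 2 genes, 244 under 3, 18 under 4, 5 under 5, 2 under 6, 3 under 7 and 1 under 14. Genes on both strands lay under 2279 peaks (65.9%) and genes of a single strand under 1181. In 3406 peaks at least some of the genes overlapped each other, and in 54 no gene pair did, so that only the peak itself spanned them. In 2687 peaks the whole peak lay inside the stretch that all its genes had in common.

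Among peaks under 2 overlapping genes, the largest class was the tail-to-tail pair, with 1066 peaks. Head-to-head pairs held 292 peaks, and pairs of 1 strand that followed each other held 552. A smaller gene inside a larger one on the opposite strand accounted for 651 peaks, and nesting on the same strand for 579. The deposited table names the part of the transcript (UTR, coding sequence or start or stop codon) that a peak touches in each gene. Such a part was named for every gene under 1934 peaks and for only some of the genes under 1526, while each of the 20827 peaks under 1 gene had one. The median span was 325 bp, against 300 bp for peaks under 1 gene, and the range ran from 50 to 272463 bp with 211 peaks over 10000 bp. Spans are genomic, so long ones can include introns. The peaks fell on 1901 distinct sets of genes, 820 of which had more than 1 shared peak. In 95 peaks several identifiers carried one symbol, as in the pair of AHNAK models on chromosome 2, which may be parts or copies of a single gene.

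Peaks with no count in any of the 12 libraries were found only under several genes. Of the 3460 shared peaks, 122 (3.53%) had no count, and 2 further such peaks had a long non-coding RNA as first entry, whereas 0 of the 20827 peaks under 1 gene did. Of the 122, 117 had genes on both strands, 120 had a transcript part in all their genes and 117 reached beyond the stretch common to the genes. A floor of 3 counts corresponds to 0.130 to 0.182 CPM (counts scaled to library size) in the libraries labelled input and 0.651 to 0.809 CPM in those labelled IP, for counting error alone. The genes under these peaks were not silent. In 96 of the 122 at least 1 gene stood at 10 FPKM or more, and the median of the highest gene was 28.0 FPKM, against 18.3 FPKM under shared peaks with counts. The highest was taken over all genes of a peak, which favours peaks with more genes. Under 3 or more genes lay 33 of the 122, and 273 of all 3460 shared peaks.

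The arrangement of the genes and the span went with the share of peaks without a count. It was 14.0% of the head-to-head overlapping pairs (41 of 292), 1.69% of the tail-to-tail pairs (18 of 1066), 1.84% of pairs nested on opposite strands (12 of 651), 0.362% of overlapping pairs in tandem (2 of 552) and 0 of 579 pairs nested on 1 strand. Among peaks under 3 or more genes it was 12.1% (33 of 273), and among the 25 head-to-head pairs that did not overlap, 48% (12). By span it ran from 0 of 1175 peaks of up to 200 bp to 54 of 211 peaks over 10000 bp (25.6%). Peaks under 1 gene of over 10000 bp numbered 1127 and all had counts. How the counting tool treated reads that touch several genes is not given in the sources used here, and its part in these zeros was not tested.

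**Figure D1:**
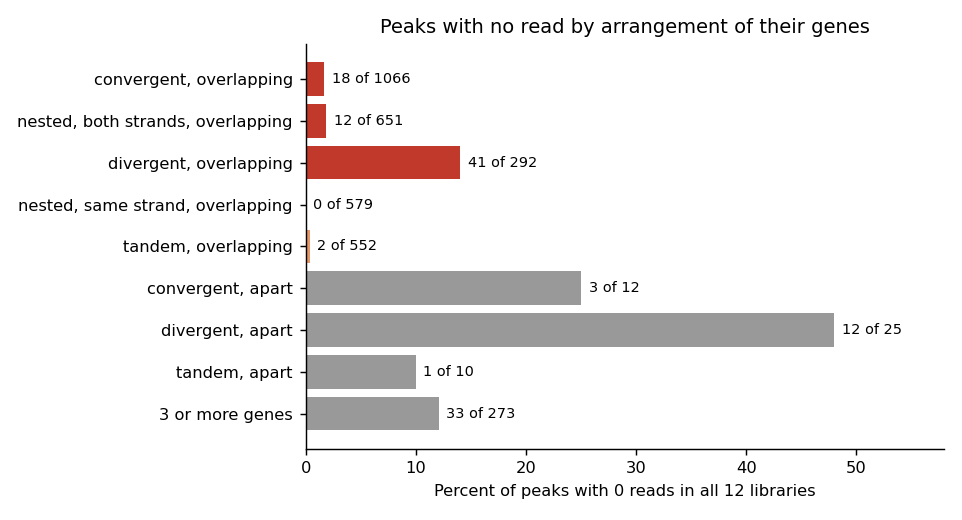
Share of shared peaks with 0 reads in all 12 libraries, in percent on the horizontal axis, with 1 bar for each arrangement of the genes under the peak and the counts beside it (convergent is tail to tail, divergent is head to head, apart means that the genes do not overlap). Head-to-head pairs stand highest among overlapping pairs at 14.0% (41 of 292), pairs nested on 1 strand stand at 0 of 579, and the tall bars of pairs apart rest on few peaks, such as 12 of 25.

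Abundant housekeeping genes lay under such empty peaks. The examples that follow were chosen for their FPKM after the values were seen. The peak with the most genes, on chromosome 12 from 1067875 to 1200729, covered 14 genes, among them ACTG1, the cytoplasmic gamma actin, at a mean of 2449 FPKM over 6 libraries, and its count was 0 in every library. The genes VPS52, a subunit of a vesicle-tethering complex, and RPS18, a protein of the small ribosomal subunit, shared an empty peak of 3432 bp on chromosome 7 from 29638833 to 29642264. RPS18 stood at 1192 ± 33.6 FPKM in CON (SD, n = 3), while VPS52 had a mean of 11.3 FPKM over 6 libraries. PRDX1, a peroxide-reducing enzyme at 396 FPKM, and AKR1A1, an aldehyde reductase, shared one of only 949 bp at chromosome 6, 165823693 to 165824641. RPL30, WDR77 with the ATP synthase subunit ATP5PB, and CBARP with ATP5F1D gave further cases, at 273 FPKM for RPL30 and 208 FPKM for each of ATP5PB and ATP5F1D. A peak under 7 genes on chromosome 1 from 268423169 to 268619193, which include the iron-siderophore binder LCN2 and the prostaglandin synthase PTGES2, was empty too. Together the empty peaks lay over 305 genes. Another peak with counts was listed for 191 of them, and for 114 there was none, 40 of which stood at 10 FPKM or more.

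Reads at the remaining shared peaks were compared between the labelled input and labelled IP libraries of CON. Of 3142 tested with edgeR's quasi-likelihood test, 991 were higher in the libraries labelled input (31.5%; 34.9% of all 23366 peaks tested) and 1272 were lower there (40.5%; 34.6% of all peaks) at a Benjamini-Hochberg adjusted p under 0.05. The median ratio of the shared peaks was -0.15 and that of peaks under 1 gene 0.01. Scaling rested on reads in peaks alone, and the median of all peaks tested was 0.01. Higher and lower are therefore relative to the typical peak. Scaling by library size alone, without TMM, moved the median of all peaks by -0.34 and the split to 754 higher and 1519 lower. Over the 9 combinations of 1 CON library labelled input with 1 labelled IP, the median of the shared peaks ran from -0.23 to -0.15 and that of peaks under 1 gene from -0.04 to -0.01. Peaks under 3 or more genes had a median of -0.42.

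The low ratios were concentrated in peaks on both strands that touched a transcript part of every gene. The median there was -0.61, with 549 of 1045 peaks (52.5%) lower in the libraries labelled input. It was -0.06 for single-strand peaks with a part in all genes, 0.04 for both strands with a part in some genes and 0.20 for 1 strand with a part in some genes. The last 2 medians turned to -0.31 and -0.14 without TMM, where that of the both-strand class with a part in all genes was -0.95. Over the 9 combinations of libraries the median of this class ran from -0.64 to -0.54 and that of single-strand peaks with a part in all genes from -0.10 to -0.05. The combinations share libraries, so these ranges are a description. Where the peak lay wholly inside the common stretch the both-strand class had a median of -0.90 over 641 peaks, against -0.06 over 404 peaks that reached beyond it.

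**Figure D2:**
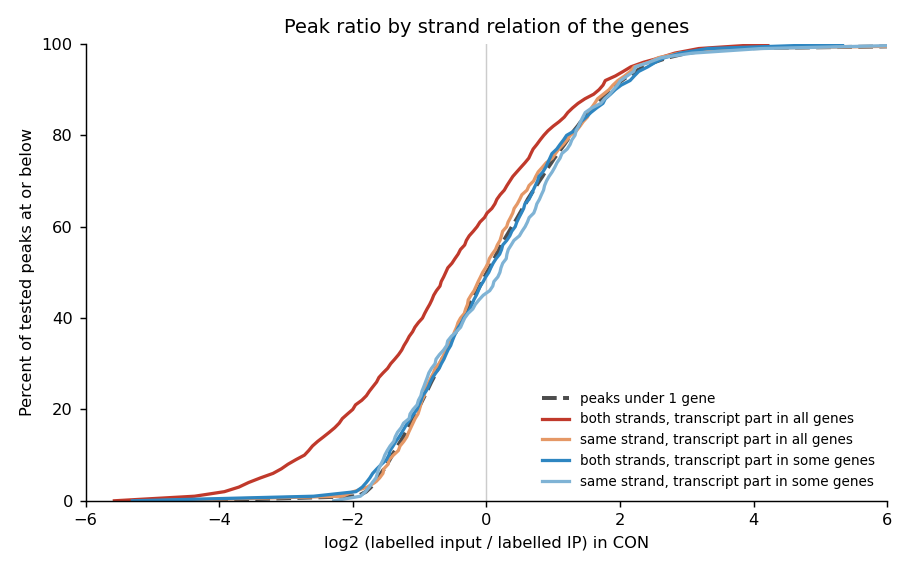
Cumulative distribution of the log2 ratio of labelled input over labelled IP in CON (horizontal axis, drawn from -6 to 6), as the percent of tested peaks at or below each ratio (vertical axis), with 1 line for each of the 4 classes of shared peaks and a dashed line for peaks under 1 gene. The line for both strands with a transcript part in all genes lies to the left of the others over most of its course (median -0.61, against 0.01 for peaks under 1 gene).

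A tail of very low ratios was made up almost wholly of shared peaks. A log2 ratio under -3 in CON, a threshold chosen after the values were seen, was found in 92 of 3142 shared peaks (2.93%; 0.415% of all peaks) and in 1 of 19595 peaks under 1 gene. Of these 92, 81 lay in the class on both strands with a part in all genes (1045 peaks), 5 in that on 1 strand with a part in all genes (685), 6 in that on both strands with a part in some genes (982) and 0 in the fourth class (430). Tail-to-tail overlapping pairs held 37 of them (1013 peaks tested), head-to-head overlapping pairs 19 (of 228), pairs nested on opposite strands 18 (of 580) and pairs nested on 1 strand 0 (of 551). At the milder threshold of -2, 244 shared peaks passed (7.77%; 1.63% of all peaks). As a share of the peaks tested, the tail under -3 was 8.33% of the head-to-head overlapping pairs, 3.65% of the tail-to-tail pairs and 3.10% of the pairs nested on opposite strands.

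Short peaks had lower ratios in general, so the classes were also set side by side within spans. Among peaks of up to 200 bp the median was -1.69 for both strands with a part in all genes, with 44 of 275 under -3, then -0.92 for 1 strand with a part in all genes (2 of 180) and -0.74 for peaks under 1 gene (1 of 6211). The same classes stood at -0.51, 0.05 and 0.24 over 200 and up to 400 bp, and at 0.26, 0.74 and 0.87 over 400 and up to 1000 bp. The classes differed less in long peaks, at -0.27, 0.03 and -0.02 over 1000 and up to 10000 bp, and at 0.09, 0.17 and 0.08 beyond 10000 bp. Where the 3' UTRs of both genes were touched on opposite strands, the median was -1.19 over 187 peaks, 18 of them under -3. It was -0.10 over 24 peaks touching 2 3' UTRs of 1 strand and -0.26 over 3610 peaks in the 3' UTR of a single gene. For 5' UTRs the corresponding medians were -0.84 (29 peaks, 7 under -3), 0.49 (25) and 0.36 (1233). Without TMM each of these lies lower by 0.34.

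The lowest ratio with enough reads belonged to a peak that RPL12, a protein of the large ribosomal subunit, shares with ZNF79, a zinc finger protein encoded on the other strand. It spans chromosome 1 from 267964640 to 267964864, in the 5' UTR of RPL12 and the 3' UTR of ZNF79. The CON libraries labelled input gave 54.9, 28.7 and 24.8 CPM there, and the CON libraries labelled IP 1862, 1705 and 1775 CPM. The groups were far apart, although the first labelled input library stood above the other 2. The log2 ratio was -5.57 ± 0.18 (SE, edgeR adjusted p = 6.13e-18), and -6.03 in OAA. By FPKM, RPL12 stood at 997 ± 22.7 and ZNF79 at 2.51 ± 0.20 in CON (SD, n = 3).

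Several other low peaks lay where tails of genes meet. NAA20, a catalytic subunit of an N-terminal acetyltransferase, and CRNKL1, a splicing factor, shared a 3' UTR peak on chromosome 17 from 28083451 to 28083550. It gave 6.92, 5.50 and 3.80 CPM in the CON libraries labelled input and 161, 184 and 167 CPM in those labelled IP, a log2 ratio of -4.94 ± 0.14 (SE, edgeR adjusted p = 6.98e-19). At NSMAF and SDCBP, the latter a syntenin that works in exosome formation, the values were 10.2, 4.90 and 5.77 CPM against 225, 185 and 196 CPM, a ratio of -4.79. The retinol carrier RBP4, at 4085 ± 111 FPKM in CON, met the fatty acid receptor FFAR4 in a peak on chromosome 14 from 105037172 to 105037346. That peak had 4.06, 2.75 and 4.23 CPM against 103, 96.3 and 106 CPM, a ratio of -4.71. The libraries of both labels lay apart in all 3 peaks, which was a condition of choice for the first, while the other 2 were chosen by their ratio in OAA.

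Low ratios also occurred in other layouts. LAMTOR3, part of the lysosomal Ragulator complex, and DAPP1, an adaptor of B cells, shared a peak of 11659 bp on chromosome 8 with 2.46, 1.07 and 1.88 CPM in the CON libraries labelled input and 73.2, 66.6 and 67.0 CPM in those labelled IP (log2 ratio -5.16). PHF1, a Polycomb-associated protein, and CUTA, nested on opposite strands, had 2.70 ± 1.08 against 84.6 ± 5.88 CPM, a ratio of -4.87. HDGF, a growth factor, and MRPL24, a protein of the mitochondrial ribosome, are an exception on 1 strand, with 2.43 ± 1.04 against 85.1 ± 2.18 CPM and a ratio of -5.02. BCKDK, ZNF646 and VKORC1, the vitamin K epoxide reductase, shared a 3-gene peak of 50 bp at -5.30. ABRAXAS1 with MRPS18C reached -5.38 and EIF2B4 with SNX17 -4.81, both with under 1 CPM on average in the CON libraries labelled input.

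Among the highest ratios picked by the naming rule, which asks for at least 5 CPM, several lay under genes of a single strand. Strand is stated below for EVA1B and STK40 alone, and the other examples were not chosen by it. The highest ratio among peaks on both strands with a part in all genes was 4.21. Ratios over 2 were no more frequent there, in 86 of 1115 single-strand peaks (7.71%) and 160 of 2027 on both strands (7.89%). The share was 8.27% of peaks under 1 gene. EVA1B and STK40, a pseudokinase, on 1 strand of chromosome 6 shared a peak from 92430469 to 92430868 with 734, 711 and 736 CPM in the CON libraries labelled input and 49.9, 47.7 and 43.2 CPM in those labelled IP. That is a log2 ratio of 4.00 ± 0.07 (SE, edgeR adjusted p = 4.78e-22). BAIAP3 and TSR3, an enzyme that modifies 18S ribosomal RNA, had 195, 191 and 194 against 11.2, 11.0 and 9.96 CPM, a ratio of 4.21. At IZUMO1, a sperm protein, and RASIP1 the ratio was 4.18 although the genes stood at 0.885 ± 0.157 and 0.269 ± 0.106 FPKM in CON. SSBP4 with ISYNA1, the inositol-phosphate synthase, stood at 4.15 and GNL2 with DNALI1 at 4.17. The highest values under that rule, at PLEKHH3 and the chemokine receptor CCR10 (5.14) and at TINF2 and NEDD8 (4.67), rest on 5 and 4 labelled IP counts in all of CON. Their counting intervals for the linear ratio run from 15.4 to 112 and from 10.2 to 97.3. A further 4 shared peaks with less than 5 CPM had higher fitted ratios, up to 8.60 at CCDC30 and PPCS. They had only 0 or 1 labelled IP count over all of CON, and such fitted values depend on the count that the fit adds to zeros.

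**Figure D3:**
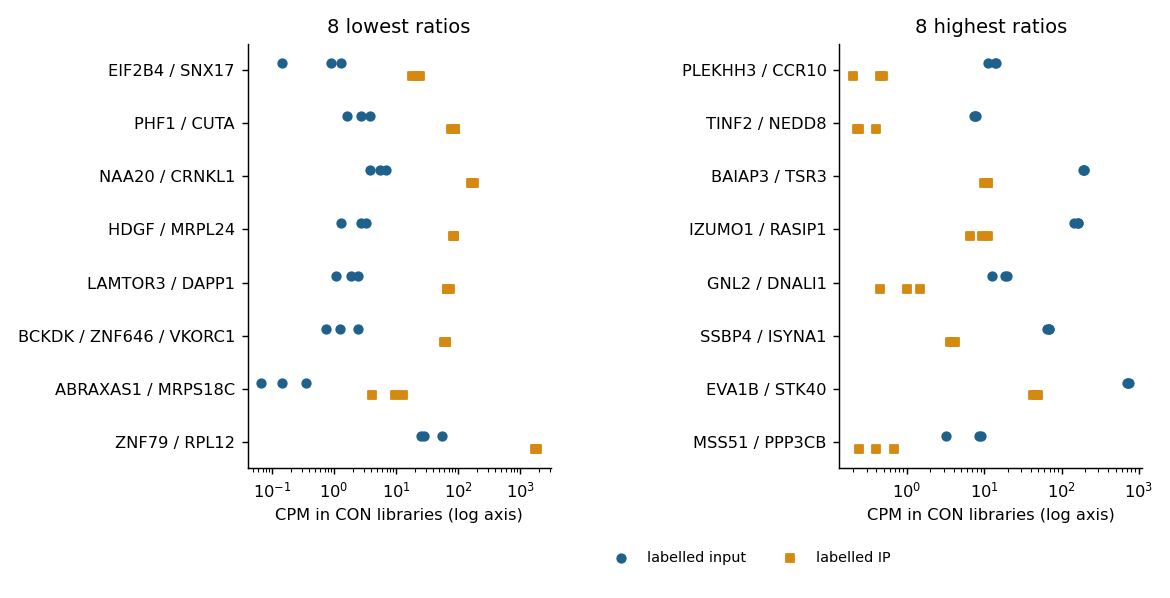
CPM in the CON libraries (horizontal log axis) of the 8 shared peaks with the lowest ratio (left) and the 8 with the highest (right) under the naming rule, with 1 circle per library labelled input and 1 square per library labelled IP. In the peak of ZNF79 and RPL12 the squares lie between 1705 and 1862 CPM and the circles between 24.8 and 54.9, and the peaks were chosen for this separation.

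The 5 shared peaks with the most reads in the libraries labelled input had ratios from 0.53 to 3.11. They were chosen by the numerator of the ratio, which favours high ratios. The peak at MYL6, a myosin light chain, and an unnamed gene of the same strand averaged 6190 ± 144 CPM in the CON libraries labelled input and 4426 ± 83.8 CPM in those labelled IP, a ratio of 0.53. KLHDC2 and ARF6, a small GTPase of endocytosis nested on the same strand, had 4161, 4288 and 4327 against 515, 513 and 501 CPM (ratio 3.11). MCL1, a survival factor of the BCL2 family, within ENSA, had 2860, 3012 and 3133 against 1280, 1188 and 1228 CPM (1.33). The cadherin CDH6, tail to tail with the microRNA processing enzyme DROSHA, had 1900, 2206 and 2013 against 587, 619 and 587 CPM (1.82). A named transcript part was touched in both genes at ENSA and MCL1, and in only 1 gene of the other pairs described, namely ARF6, CDH6 and the unnamed partner of MYL6.

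Genes with several shared peaks showed how much the ratio can differ within a few kilobases. These loci were chosen after their values were seen. The ZNF79 and RPL12 pair has 6 shared peaks, and a peak at the stop codon of ZNF79 from 267958866 to 267959490 stood at 94.1 ± 6.66 CPM in the CON libraries labelled input and 20.9 ± 1.77 CPM in those labelled IP (SD, n = 3). Its ratio was 2.22, against -5.57 at the far end of the same pair, and the other 4 peaks lay between -0.35 and 0.84. Among those 4, the peak from 267959591 to 267959790 is also marked with the stop codon of ZNF79, at a ratio of -0.04. CTSB, the lysosomal protease cathepsin B, and FDFT1, squalene synthase, meet tail to tail on chromosome 14. Their peak from 15014207 to 15014381 had 7.89 ± 1.38 against 137 ± 2.45 CPM (ratio -4.05) and the next one, from 15014565 to 15015031, 439 ± 20.2 against 567 ± 7.44 CPM (-0.32). The third peak of the pair had no count. SNX17, a sorting nexin, shared low peaks at both ends: at -4.81 with EIF2B4 at its start, and at -3.33 and -4.07 with ZNF513 at its end.

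Long genes carried chains of peaks. Across 17 peaks of the AHNAK pair, a giant scaffold protein, the median ratio was -0.99, and 2 were called higher and 12 lower. The highest, at its start codon, had 586 ± 38.7 CPM in the CON libraries labelled input against 242 ± 12.2 CPM (1.33). MAP1B, a microtubule-associated protein of neurons, overlaps the mitochondrial ribosomal gene MRPS27 in 15 peaks on chromosome 16 with a median of -0.92. Only 1 of these was called higher, the peak over the stop codon of MAP1B, at 171 ± 11.0 against 64.5 ± 10.0 CPM (1.45), and 11 were lower. The 9 peaks under FREM2 and UFM1, a ubiquitin-like modifier, ran the other way, with a median of 1.56 and 7 higher and 0 lower.

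The 10 gene family lists were followed by symbol through the shared peaks, and all counts are of shared peaks tested in CON. A peak counted for a list wherever a listed gene lay under it, also where no part of that gene's transcript was named. Over all shared peaks the median was -0.15, with 40.5% lower and 31.5% higher, and over all peaks tested 34.6% were lower and 34.9% higher. Mitochondrial ribosomal proteins were under 74 of the shared peaks, with a median ratio of -0.95, and 44 of 70 were lower (62.9%) and 14 higher. The MAP1B and MRPS27 pair alone gave 15 of these 70, with 11 lower and 1 higher. Most of its peaks lay in MAP1B coding sequence, with no transcript part named for MRPS27. Subunits of oxidative phosphorylation had a median of -1.12, with 31 of 45 lower (68.9%) and 7 higher, and a further 10 of their 56 peaks had no count. Aminoacyl-tRNA synthetases, which charge tRNAs, stood at -1.31, with 14 of 23 lower (60.9%) and 5 higher. Proteasome subunits stood at -0.91 (12 of 22 lower, 54.5%, and 4 higher), a median that turned to 0.26 with DESeq2, which tests more of the sparsely read peaks. RAB family GTPases of vesicle traffic stood at -0.46, with 17 of 36 lower (47.2%) and 8 higher. For solute carriers, at -0.32 with 45 of 105 lower (42.9%) and 31 higher (29.5%), and for cytosolic ribosomal proteins, at -0.35 with 24 of 55 lower (43.6%) and 18 higher (32.7%), the shares were near those of all shared peaks. Zinc finger proteins lay on the other side, at 0.44 with 56 of 136 higher (41.2%) and 30 lower (22.1%), against 0.10 without TMM. The 9 peaks of splicing factors had a median of 0.28, which turned to -0.06 without TMM, and histones had only 3.

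The examples that follow were chosen by their reads in the libraries labelled IP, the denominator of the ratio, which favours low ratios, so they do not stand for their families. RPL7A, a protein of the large ribosomal subunit, with an unnamed gene on the other strand, had 355, 241 and 276 CPM in the CON libraries labelled input and 3321, 3114 and 3139 CPM in those labelled IP (ratio -3.41). RPL26 within NDEL1 had 226, 166 and 178 against 1663, 1479 and 1544 CPM (-2.99). NDUFB7, a subunit of respiratory complex I, with the fatty acid elongation enzyme TECR had 21.7, 13.8 and 14.2 against 228, 217 and 220 CPM (-3.68). For MRPS22 with COPB2, a coat protein of Golgi vesicles, the values were 27.0, 23.2 and 29.2 against 239, 231 and 221 CPM (-3.07). RAB1A, which directs vesicles from the endoplasmic reticulum to the Golgi, with CEP68 had 77.8, 71.1 and 73.5 against 718, 670 and 691 CPM (-3.17). The chaperone HSP90AB1 and the transporter SLC35B2 shared one peak at -2.81 and one at -3.92. In all of these the labelled input and labelled IP libraries of CON were separate. MRPL53 was the contrary case, with CCDC142 at 751, 707 and 718 against 258, 234 and 259 CPM (1.58), and its own FPKM is listed at 0.

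The genes under 1 peak were seldom equally expressed. In 1520 shared peaks (43.9%) more than 90% of the summed FPKM belonged to 1 gene, and the median share of the leading gene was 86.1%. At least 2 genes reached 1 FPKM in 2269 peaks and 10 FPKM in 769, and in 100 no gene reached 1 FPKM. The median ratio in CON was -0.00 where the leading gene held over 90% (1354 peaks tested) and -0.45 where it held 60% or less (420). Peaks under -3 numbered 32 in the first of these sets (2.36%) and 13 in the second (3.10%). Their share was highest, at 4.91%, where the leading gene held 60 to 70%. In bulk libraries fewer cells with a transcript and less of it per cell cannot be told apart.

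For 489 shared peaks under 2 genes, both genes also had peaks of their own with a ratio, which gives each shared peak a reference on each side. On both strands with a part in all genes, 144 of 272 shared peaks (52.9%) lay below the medians of both genes' own peaks and 60 above both. The typical such peak was 0.68 lower (log2) than the mean of the 2 own medians. On 1 strand with a part in all genes 21 of 74 lay below both and 24 above both, and the typical peak was 0.20 higher. On both strands with a part in some genes 40 of 109 lay below both and 36 above both, and on 1 strand with a part in some genes 12 of 34 lay below both and 12 above both. The typical peaks of these classes differed from the mean of the own medians by -0.26 and -0.10. RAB1A and CEP68 show the first kind, with own peaks at 1.39 (1 peak) and -0.42 (median of 3) against -3.17 in the shared peak. LAMTOR3 and DAPP1, each with 1 own peak, stood at 3.63 and -1.64 against -5.16. FFAR4 (3 own peaks) and RBP4 (2) stood at -0.40 and -1.82 against -4.71.

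**Figure D4:**
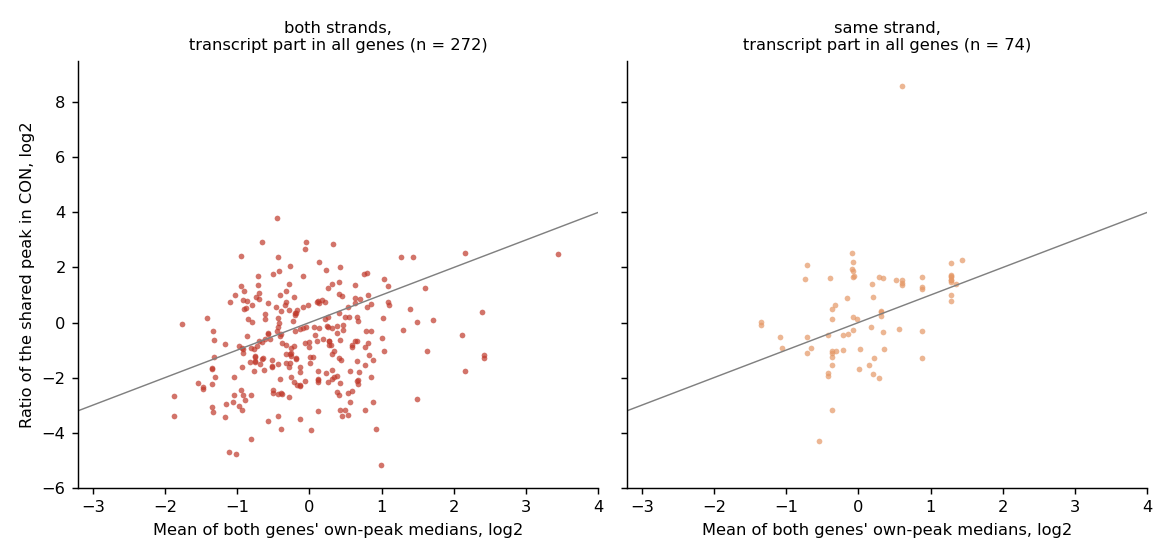
Ratio of shared peaks under 2 genes in CON (vertical axis, log2 labelled input over labelled IP) against the mean of the medians of both genes' own peaks (horizontal axis, same unit), 1 point per shared peak, with a line where both are equal. The left panel holds the 272 peaks on both strands with a transcript part in all genes, of which 144 lie below both genes' own medians, and the right panel the 74 peaks on 1 strand, of which 21 do.

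The same ratios were formed from the 6 OAA libraries, which share no library with CON. Of 3173 shared peaks tested, 945 were higher in the libraries labelled input (29.8%; 33.6% of all 23565 peaks) and 1281 lower (40.4%; 34.4% of all peaks). Of the 1272 peaks lower in CON, 1177 (92.5%) were lower in OAA too, and 853 of the 976 peaks higher in CON and tested in OAA (87.4%) were higher, with 0 called in the opposite direction. In OAA 105 shared peaks were under -3 (3.31%; 0.467% of all peaks) beside 2 under 1 gene, and 82 of the 92 from CON were among them. Under -2 there were 253 (7.97%; 1.98% of all peaks). Across 3112 peaks tested in both, Pearson's r of the ratios was 0.941, against 0.924 over 19377 peaks under 1 gene. These are points across peaks that share their libraries, given as a description. Over the 9 combinations of OAA libraries the median of the class on both strands with a part in all genes ran from -0.67 to -0.53, and that of single-strand peaks with a part in all genes from -0.13 to -0.01.

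**Figure D5:**
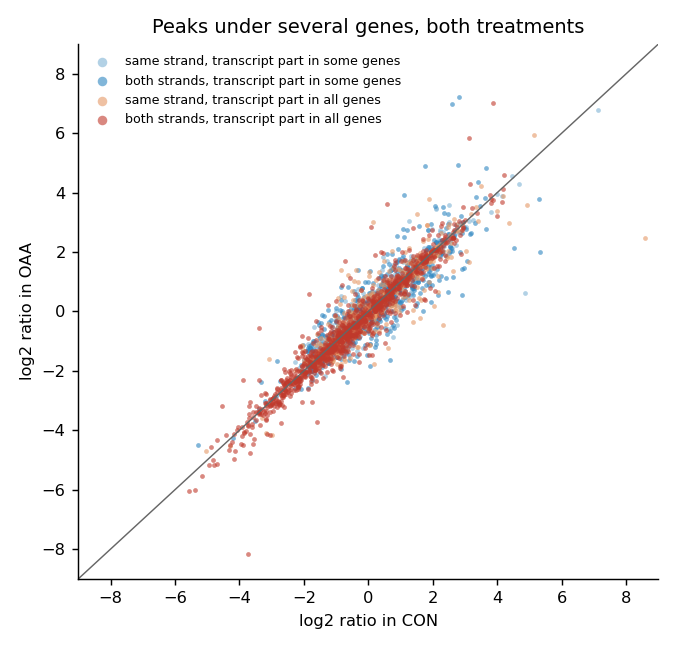
Log2 ratio of labelled input over labelled IP of each shared peak in CON (horizontal axis) and in OAA (vertical axis), 1 point per peak, coloured by strand relation and transcript part, with a line where both are equal. The points follow the line with r = 0.941 over 3112 peaks, and 82 peaks lie under -3 on both axes.

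Whether OAA altered the ratio itself was tested as an interaction over all 12 libraries. None of 3237 shared peaks was called by edgeR (0 of 24145 peaks in all, 0%), and 154 had an unadjusted p under 0.05 (4.76%; 4.46% of all peaks). The median difference was -0.01. DESeq2 called 1 shared peak (0.00401% of all peaks tested). The members with the smallest edgeR p are given as values that did not pass. The peak of Tceal5 and TCEAL2 on chromosome X stood at 2.06, 1.54 and 1.44 CPM in the CON libraries labelled input and 3.87, 3.70 and 2.91 CPM in those of OAA, and at 16.2, 12.4 and 16.5 against 11.1, 11.6 and 9.81 CPM in the libraries labelled IP. Its ratio differed by 1.51 ± 0.36 (log2, SE; edgeR adjusted p = 0.974). At CD2BP2, a splicing-linked protein, and MYL11 the labelled input values were 3.46, 2.55 and 4.23 CPM in CON and 8.87, 7.68 and 7.06 CPM in OAA, with labelled IP values that overlapped, and the ratio differed by 1.16 ± 0.28. ARMC7 with NT5C, a nucleotidase, gave -0.84 ± 0.20, from 6.17, 5.03 and 5.00 CPM in CON and 2.99, 3.43 and 4.16 CPM in OAA in the libraries labelled input. Further differences were 1.60 at LACC1 and CCDC122, 1.36 at TRMT10B and EXOSC3, a subunit of the RNA exosome, 1.11 at RETSAT and ELMOD3 and -0.70 at CIAO2A and SNX1. Of these 7 peaks, 6 had a CON ratio under -3, with far lower CPM in the libraries labelled input than in those labelled IP. The CON ratio of CD2BP2 and MYL11 stood at -2.82. In the peak of CCDC30 and PPCS and that of ZSCAN26 and PGBD1, at most 1 CON library labelled IP had any count.

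Within the libraries labelled input, edgeR called 0 of 3307 shared peaks between OAA and CON (0%, 0 of 24835 in all), and 186 had an unadjusted p under 0.05 (5.62%; 5.2% of all peaks). The median difference was 0.01. The smallest p was at IGFBP7, a secreted binder of insulin-like growth factors, and POLR2B, a subunit of RNA polymerase II, on chromosome 8 from 56280819 to 56281343. The peak had 108, 117 and 108 CPM in CON and 72.4, 87.6 and 74.5 CPM in OAA, which do not overlap. The log2 difference was -0.51 ± 0.09 (SE), with an adjusted p of 0.0811 in edgeR and 0.00125 in DESeq2, where it was 1 of 2 peaks called (0.00802% of all tested). In the libraries labelled IP it stood at 86.2, 87.5 and 72.9 CPM in CON and 63.1, 60.3 and 83.7 CPM in OAA, which overlap. The FPKM of IGFBP7 were 289 ± 2.58 in CON and 278 ± 17.6 in OAA (SD, n = 3). NMT1, which attaches myristate to proteins, with DCAKD had 23.2, 24.4 and 23.8 CPM in CON and 33.0, 32.1 and 32.9 CPM in OAA (0.46 ± 0.12, edgeR adjusted p = 0.94).

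Within the libraries labelled IP, 0 of 2723 shared peaks were called, beside 1 of 20098 peaks in all (0.00498%), and 90 had an unadjusted p under 0.05 (3.31%; 3.88% of all peaks). DESeq2 called 0 of 3320 shared peaks (0.00404% of all peaks). HCRTR1 and PEF1 had the smallest p, at 19.3, 17.7 and 15.5 CPM in CON and 23.7, 33.4 and 25.0 CPM in OAA (0.63 ± 0.17, log2, SE; edgeR adjusted p = 0.998). The peak of the complex V subunit ATP5PF with GABPA, a transcription factor, had 126, 115 and 122 CPM in CON and 145, 145 and 144 CPM in OAA (0.24). That of RPL5 and DIPK1A had 46.9, 50.6 and 53.4 against 43.0, 36.9 and 39.7 CPM (-0.35). A peak under 2 models of DDIT3, the stress factor CHOP, had 1.12, 1.81 and 1.70 against 3.19, 3.66 and 4.59 CPM (1.27).

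One library decided this count. Without the third OAA library labelled IP, 7 of 2782 shared peaks were called higher (0.252%) and 2 lower (0.0719%). Over all 20550 peaks tested, 40 were called higher (0.195%) and 10 lower (0.0487%). The higher shared peaks included ALDOA, a glycolytic aldolase, with an unnamed gene (0.38, edgeR adjusted p = 0.00108), the peak of ESRRA, TRMT112 and the peroxiredoxin PRDX5 (0.31), the metallothioneins MT3 and MT1X (0.27), the small heat shock protein HSPB1 (0.25), SERF2 with HYPK (0.25), ACY1 with RPL29 (0.20) and MYL6 (0.20). The lower shared peaks were IGFBP7 with POLR2B (-0.43) and UTP3 with the immunoglobulin joining chain JCHAIN (-0.30). At ALDOA the libraries labelled IP had 151, 160 and 143 CPM in CON and 203, 195 and 147 CPM in OAA, so that the third OAA library lay within the CON range. At HSPB1 they had 248, 237 and 264 CPM in CON and 303, 297 and 222 CPM in OAA. With all 6 libraries the adjusted p of each of the 9 was 0.998. These peaks are named because the library left out changed their call.

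The FPKM of the genes under shared peaks did not differ by the same standard. Of 2689 such genes tested with limma, 0 were called between OAA and CON (0%, 0 of 10763 genes in all), and 94 had an unadjusted p under 0.05 (3.5%; 3.31% of all genes tested). In the authors' deposited table, 90 of 3338 shared peaks with counts had a p under 0.05 for the difference between the treatments (2.7%, and 2.69% of all peaks with counts) and 0 had an adjusted p under 0.05. The medians of that table's log2 ratios were 3.78 for shared peaks and 3.96 for peaks under 1 gene in CON, and 3.86 and 4.04 in OAA. The ratios used here had medians of -0.15 and 0.01 in CON, so the zero points of these scales differ. Of 35 peaks whose deposited log2 ratio in CON was under 0, 33 were shared peaks.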

How the data were processed

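The first deposited table, per the file headers, gives read counts of 12 libraries in merged peaks together with the authors' log2 ratios, p-values and −log10 p-values. The second gives the authors' FPKM per gene for 6 libraries. The test behind the deposited p-values is not stated, and the −log10 columns were not used. Bowtie2 and HISAT2 are named in the submitters' processing notes, with no role. No source used here gives their versions, the peak caller, whether counting used strand, or the genome build. Coordinates are those of the files, with starts raised by 1 because they count from 0. All count and FPKM columns were matched to samples through the library codes in the sample descriptions. Codes C and O belong to libraries labelled IP, and codes CON and OAA to libraries labelled input.

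Each peak was used once with all its genes. Of the 3479 genes, 2937 are named by the reference table and 424 by the deposited one only, which leaves 118 without a symbol. Counts were tested over all peaks in R 4.3.3 with the quasi-likelihood F test of edgeR 4.0.16 after TMM scaling and filterByExpr, with calls at a Benjamini-Hochberg adjusted p below 0.05. FPKM, taken as log2(FPKM + 1), were tested with limma 3.58.1 and its trend option wherever 3 or more libraries reached 1 FPKM, on a scale that understates differences of low genes. DESeq2 1.42.0, no TMM, no filter, a replicate block, subsets of peaks and leaving out each library were tried as alternatives. CPM are edgeR's after TMM over all 12 libraries. Both fits were tested on simulated data. The depth is given as reads in peaks, and intervals (exact, 95%) cover counting error only.

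Peaks are named by rule: for the ratio in CON, the 8 highest and 8 lowest called that reach 5 CPM in the group with more reads, no overlap between groups and at least 2 symbols. For the other comparisons these are the called peaks (up to 10 per direction) or, where fewer than 5 were called, the 10 with the smallest p. The 5 with the most genes, the 5 with the most labelled input CPM and up to 3 per family list by labelled IP CPM were added, and the text prints a part of them. The members and lists were chosen with earlier results of these data known. An item that the rule selects is not reported here.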

Additional observations from a re-analysis of the deposited data

How the results depend on the processing

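Of 122 summary values recomputed under an alternative, 111 stayed on their side of the threshold, close to the main count or, for medians, within 1 SD between libraries, and 6 medians kept their direction but moved by more. DESeq2 called 1 shared peak for the change of the ratio and 1 in the libraries labelled input, where edgeR called 0. Leaving out 1 library at a time gave 0 to 9 calls in the libraries labelled IP, the 9 without the third OAA library, and 0 in the change, labelled input and FPKM comparisons. It gave 906 to 944 higher and 1171 to 1233 lower peaks in CON, 876 to 969 and 1170 to 1278 in OAA, and 78 to 98 peaks under -3 in CON and 91 to 106 in OAA, the latter counts read after seeing the data. Peaks under -3 rose to 131 in CON (92 in the main fit) and 131 in OAA (105) without TMM. These counts of 131 are among the values taken as close to the main count. Without TMM the median ratio in CON was -0.49 for shared peaks, -0.33 for peaks under 1 gene, a change of sign from 0.01, and -0.95 for the class on both strands with a part in all genes, an alternative added after seeing the data like the no-count and -0.74 values below. Among peaks of up to 1000 bp these medians were -0.21 for shared peaks and -0.74 for that class, the difference of shared peaks from peaks under 1 gene was -0.22 against -0.16, and 18 peaks had no count, the rest of the 122 being longer. With the peaks whose first entry is a long non-coding RNA that difference was -0.14. Without TMM the CON ratios of the peaks at HSPB1 (-0.063), at LYPLA2 to SRSF10 (-0.059) and at UTP3 and JCHAIN (-0.019) changed sign. Of 1484 values of single named peaks under alternatives, 1453 were the same, 11 passed the threshold anew, 17 no longer passed and 3 changed sign. With the replicate number as a block the counts were 971 higher and 1262 lower in CON, 950 and 1283 in OAA, and 0 elsewhere. Deviations of same-numbered labelled input and labelled IP libraries from their group means correlated in CON by -0.04, 0.08 and 0.03, and in OAA by 0.13, 0.08 and 0.22, so the numbers were not taken to pair the libraries. Each OAA library correlated best with its own number, and those of CON did not all do so. The libraries labelled IP, with 3.71 to 4.61 M reads in peaks, limit every ratio whose labelled IP count is small.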
